A study of Rattus norvegicus with 6 samples.

Results

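The insulin genes Ins1 and Ins2 and the amylin gene Iapp were followed through all cells of the pancreas libraries, 3 genes of the 32883 in the matrices. Their levels were read as a share of unique molecular identifiers (UMIs, each a counted mRNA molecule) in every cell class and rat. Ratios between them were taken in cells in which Ins1 and Ins2 together made up at least 20% of UMIs, here called insulin-high cells, of which there were 2583 among 75201 cells. Single-cell RNA sequencing covered 6 male Wistar rats in 3 groups of 2. The young rats were 2 months old on a normal diet. The old rats had a normal diet from 2 to 20 months of age, and the HFHF-old rats a high-fat high-fructose diet over the same 18 months. Islets were enriched on a density gradient before dissociation, so the libraries are not a census of the pancreas. The labels give each library as 1 rat of its group, and with 2 rats a group every p-value measures the spread between few animals.

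The 78024 barcodes held between 77387928 and 166875258 UMIs per library. Between 20 and 69 barcodes occurred in both libraries of any pair. HFHF-old 2 stood apart, since 8130 of its 11716 cells were NK-like and 2 were beta-like. It was therefore left out of the tests on islet classes, except where values with rats under 10 cells kept are given, and HFHF-old 1 stood alone for its group, assumed to vary like the other rats. In young 2, a cluster of 1481 secretory cells with no name came wholly from that library. Leaving out the 1% of cells with the most genes took 56.1% of the insulin UMIs of HFHF-old 1, 42.8% of old 1, 20.8% of young 2, 18.7% of young 1 and 4.37% of old 2. Clusters were named from markers that did not include the 3 genes, and 15.8% of cells stayed unnamed.

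Insulin is made in beta cells as a preprohormone, cleaved in the secretory granule and released when glucose rises. Rats and mice carry a pair of insulin genes, Ins2 being the ancestral copy with the usual introns and Ins1 a retroposed copy of it. Iapp encodes islet amyloid polypeptide, or amylin, which is packed into the same granules as insulin and slows gastric emptying. Beta cells are its main source, and delta cells of rodents are also known to make it. Because Ins1 and Ins2 are close paralogs, a read that fits both can be dropped or assigned to either, so their separate values are less certain than their sum.

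The 250 bases before the start of each gene are shown because the insulin promoter carries well-known control elements, the E-box and A-box bound by NeuroD1 and Pdx1 among others, and because the 2 insulin genes are compared with each other below. The sequences come from RefSeq on build GRCr8 and run 5′ to 3′ on the strand of the gene. Ins1 is at chr1:261185869-261186118 on the plus strand, Ins2 at chr1:207273806-207274055 on the minus strand and Iapp at chr4:176967847-176968096 on the plus strand. Capitals mark CATCTG (E-box), TAATG (A-box) and TATAAA (the box close to many start sites).
Ins1: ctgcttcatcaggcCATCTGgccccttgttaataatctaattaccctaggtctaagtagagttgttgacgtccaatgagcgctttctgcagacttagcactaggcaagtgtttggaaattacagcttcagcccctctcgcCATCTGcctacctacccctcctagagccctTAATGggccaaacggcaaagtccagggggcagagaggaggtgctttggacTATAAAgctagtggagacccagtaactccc
Ins2: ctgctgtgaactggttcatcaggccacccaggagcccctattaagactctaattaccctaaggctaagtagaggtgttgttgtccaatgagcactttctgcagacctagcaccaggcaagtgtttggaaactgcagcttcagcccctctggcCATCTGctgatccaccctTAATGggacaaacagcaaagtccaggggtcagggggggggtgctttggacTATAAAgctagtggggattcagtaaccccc
Iapp: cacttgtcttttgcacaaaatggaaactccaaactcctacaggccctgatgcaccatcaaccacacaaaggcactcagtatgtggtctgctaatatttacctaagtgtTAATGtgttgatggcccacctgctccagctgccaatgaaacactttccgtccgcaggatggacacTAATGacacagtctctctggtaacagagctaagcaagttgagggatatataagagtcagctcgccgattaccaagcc

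Both insulin promoters held TATAAA at -30 to -25 and TAATG at -80 to -76 from the start of the gene. Ins1 had CATCTG at -236 to -231 and at -110 to -105, whereas Ins2 had it once, at -98 to -93. Aligned, 205 of 238 bases were identical (86.1%), with 14 gap positions. The Iapp window had TAATG at -142 to -138 and at -77 to -73 and neither CATCTG nor TATAAA. Searched on both strands, CATCTG was in 14% of 33469 promoters of the same length, TAATG in 26% and TATAAA in 12.9%, so each alone is common. The search also covered TAAT, which TAATG contains, TGACG, found in Ins1 alone of the 3, and TGCAGC, found in Ins2 alone. These were in 57%, 18.2% and 15.6% of promoters. The letters are a description of the windows and not a measurement of binding.

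Transcripts of the insulin genes were found in every library, but HFHF-old 2 was far below the others. Ins1 made up 1.76% and 8.46% of all UMIs in young 1 and 2, 4.91% and 7.63% in old 1 and 2, and 2.72% and 0.0204% in HFHF-old 1 and 2. Ins2 made up 1.32% and 6.26%, 3.92% and 8.94%, and 3.31% and 0.0317% in the same order. For each gene the HFHF-old values were under those of the old group without overlap, while the young overlapped both other groups. Ins1 exceeded Ins2 in both young rats and old 1 and was below it in the other 3 rats. Iapp was much scarcer, with 0.00874% and 0.0319% of UMIs in the young, 0.0346% and 0.0194% in the old, and 0.00804% and 0.000101% in the HFHF-old rats. The part of the number of islet cells in a library, and of the level per cell, in these shares was not tested.

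Across 20 cell classes, beta-like cells had the highest share of insulin, a median of 72.7% of UMIs over 5 rats, with a range from 57.1% to 82.7% that did not overlap that of any other class. Delta-like cells followed with a median of 22.5%, but over 4 rats they ran from 0.405% to 51.3% and overlapped the classes after them. Clusters of secretory cells named T-like, fibroblast-like, B-like and endothelial-like came next, with medians of 19.4%, 10.25%, 4.42% and 1.20%. Among the classes after those, alpha-like cells had a median of 0.973%, endothelial-like cells 0.73%, smooth muscle-like cells 0.523%, acinar-like cells 0.472%, T-like cells 0.3%, fibroblast-like cells 0.267% and PP-like cells 0.204%, over all rats with at least 10 cells of the class. Smooth muscle-like cells reached 15.9% in old 2 and did not exceed 0.553% in the other rats. The ranges of these classes overlapped, so that their order cannot be read beyond the spread between rats.

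The order for Iapp was different. Delta-like cells had the highest median share, 0.285% of UMIs, with a range from 0.102% to 0.301%, and beta-like cells came next at 0.135%, from 0.0688% to 0.265%. Those 2 ranges overlapped, and the lowest beta-like value lay above the highest of every class that followed. The secretory clusters named fibroblast-like, T-like and B-like had medians of 0.0346%, 0.0231% and 0.0169%. Alpha-like cells had a median of 0.0218% and PP-like cells one of 0.0156%, and the ranges of all these classes overlapped. Acinar-like, T-like, NK-like, macrophage-like and fibroblast-like cells did not exceed 0.00197% in any of these rats. Endothelial-like cells had a median of 0.0029% and reached 0.00741%. Smooth muscle-like cells reached 0.0202% in old 2, above the alpha-like (0.0115%) and PP-like (0.0109%) cells of that rat. The plot of shares by class shows both genes on a log scale.

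**Figure D1:**
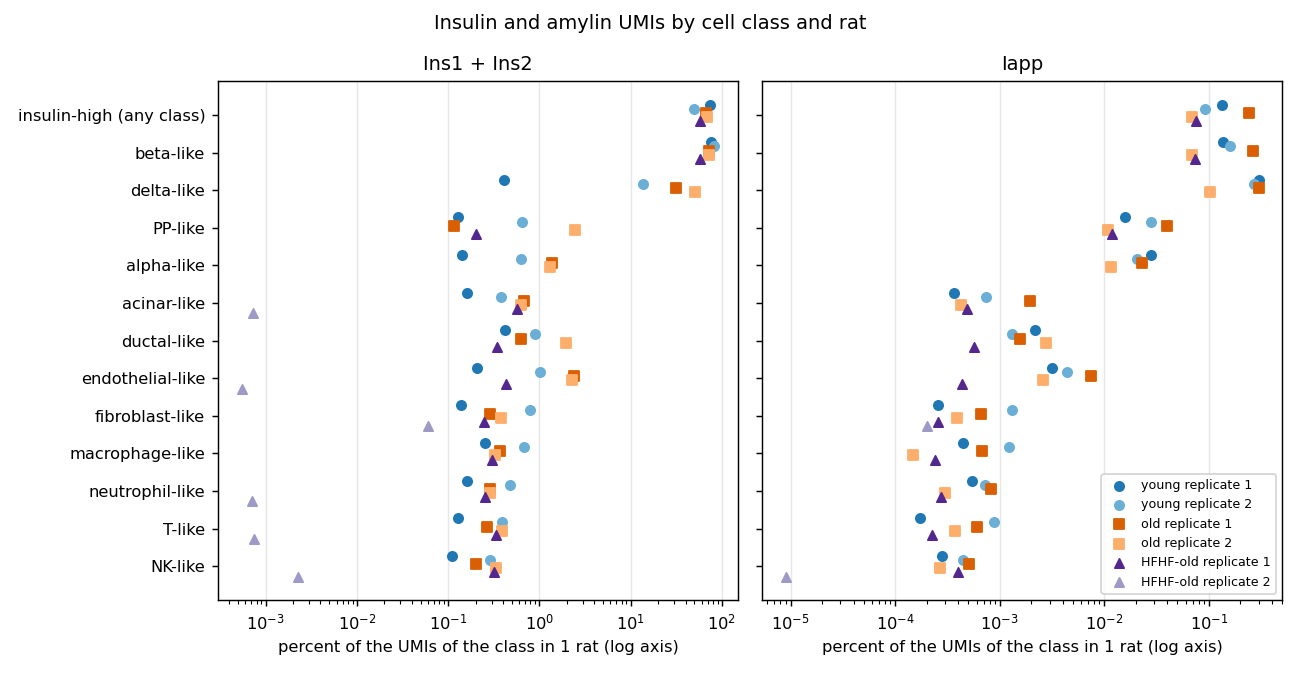
Share of UMIs from Ins1 and Ins2 together (one panel) and from Iapp (the other panel) in a choice of cell classes and in insulin-high cells of any class, on log axes in percent, 1 point per rat with at least 10 cells of the class. Smooth muscle-like, mast-like, dendritic-like and mesothelial-like cells and the secretory clusters named for immune or stromal classes are not drawn. Insulin was highest in beta-like cells, while Iapp in delta-like cells reached the range of beta-like cells. The immune and stromal classes plotted had lower medians than both.

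Most insulin UMIs sat in few cells. Insulin-high cells numbered 120 and 878 in the young, 350 and 1009 in the old, and 222 and 4 in the HFHF-old rats. Of the insulin UMIs in the cells kept, they held 93.9% and 66.0% in the young rats, 93.9% and 98.3% in the old, and 90.2% and 96.5% in the HFHF-old rats. Young 2 was the exception, with 32.9% of its insulin in cells between 1% and 20%. Of the Iapp UMIs, insulin-high cells held 57.3% and 58.6% in the young and 87.7% and 87.6% in the old. In the HFHF-old rats they held 87.0% and 89.3%. In young 1, 38.3% of Iapp UMIs were in cells with under 1% insulin, where 4.24% of insulin UMIs were. Both sets of cells were chosen by insulin itself. The parts of insulin and Iapp in them are therefore no test of which gene is more concentrated.

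Being insulin-high was not the same as being a beta cell by the other markers. Of the 2583 insulin-high cells, 601 were beta-like, 1026 were secretory cells without a name and 247 were in a cluster of secretory cells led by Car3, Scd, Thrsp, Retn and Adipoq, genes of fat cells among them. Beta-like cells were 60 of 120 and 34 of 878 in the young, 44 of 350 and 305 of 1009 in the old, and 156 of 222 and 2 of 4 in the HFHF-old rats. Young 2 supplied 561 of the 1026 unnamed secretory cells. Comparisons of insulin-high cells between rats thus set unlike mixes of cells beside each other. Median depth was 20998 and 8120 UMIs in the young, 3870 and 2286 in the old, and 33382 and 12325 in the HFHF-old rats. Cells under 5000 UMIs made up 43.3%, 19.6%, 59.4%, 60.2% and 23.4% of them in the 5 rats other than HFHF-old 2. Barcodes most like simulated doublets made up 16.7%, 4.56%, 0.571%, 20.6% and 8.11% in the same rats, and the part of either in the results was not tested. Conversely, 60 of 63, 34 of 36, 44 of 60, 305 of 311, 156 of 183 and 2 of 2 beta-like cells were insulin-high.

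Outside young 2, few cells lay close to the 20% limit. It marked no clear gap in old 1 and old 2, which had 40 and 62 cells at 25% to 30%. Just under it, at 15% to 20% insulin, were 10, 28, 85 and 16 cells in young 1, old 1, old 2 and HFHF-old 1, and just above it, at 20% to 25%, were 5, 19, 69 and 11. In young 2 the counts were 1481 and 447, so there the limit ran through a crowd of cells of about 7845 to 8891 UMIs. Its cells just under and just above had Ins1 to Ins2 ratios of 1.39 and 1.41 and thus hardly differed. In old 2 those ratios were 0.865 and 0.755, and in HFHF-old 1 they were 0.872 and 0.753.

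**Figure D2:**
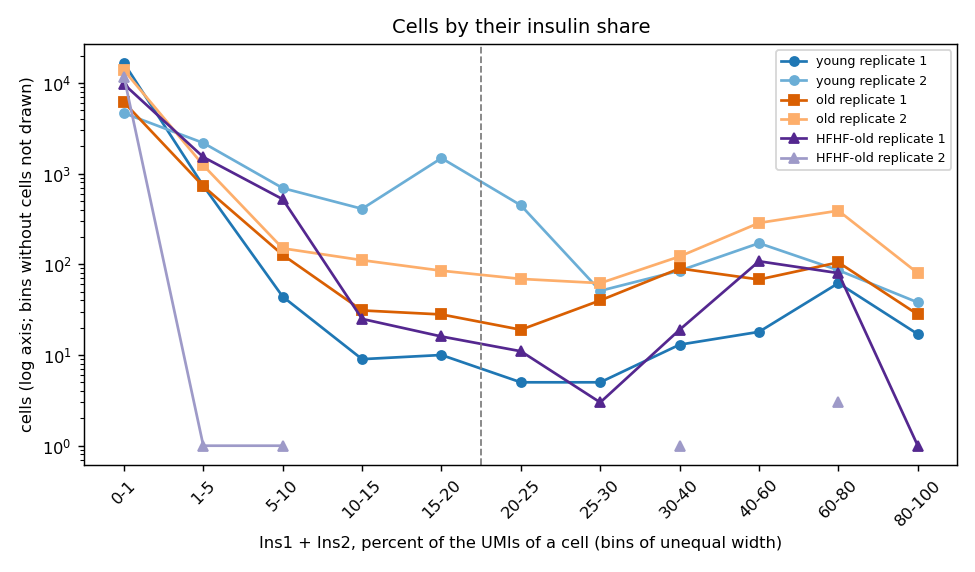
Number of cells (log axis) by the share of UMIs from Ins1 and Ins2, one line per rat, with the 20% limit dashed. Young 2 alone shows a peak beside the limit, with 1481 cells at 15% to 20%.

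The question in beta-like cells was whether the 3 genes differed with age or diet. Beta-like cells numbered 63 and 36 in the young, 60 and 311 in the old, and 183 and 2 in the HFHF-old rats. Between 10 and 13 of 13 other beta markers, such as the glucose transporter Slc2a2 and the transcription factor Pdx1, were detected in them. These markers summed to 1158 to 2519 CPM (counts scaled to a common total per rat) against 40.9 to 82.0 in immune and stromal cells. The cells were named with the same list of markers, so this is not an independent check of their identity. Markers of other islet cells were present as well and differed between rats. The 10 alpha markers summed to 395 and 460 CPM in the young, 2090 and 5417 in the old and 655 in HFHF-old 1. Those of PP cells ran from 29.2 in young 1 to 5963 in old 2 among these 5 rats. The 13 acinar markers summed to 2967 CPM in HFHF-old 1 and to 301 to 641 in the young and old rats. The part of these markers in the values was not tested.

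Ins1 made up 43.6% and 46.6% of the UMIs of beta-like cells in the young, 39.7% and 32.8% in the old, and 26.2% and 24.95% in the HFHF-old rats. The 3 groups did not overlap, with the young highest and the HFHF-old lowest, although HFHF-old 2 rested on 2 cells. Ins2 made up 32.3% and 36.1%, 33.0% and 39.5%, and 30.9% and 40.9% in the same order, and there all groups overlapped. Iapp made up 0.135% and 0.160% in the young, 0.265% and 0.0688% in the old, and 0.0735% and 0.0975% in the HFHF-old rats. The old rats enclosed both other groups, and HFHF-old rats lay under both young rats. By abundance, Ins1 ranked first among all genes in both young rats and old 1, and Ins2 in old 2 and HFHF-old 1. Iapp ranked 14, 7, 10, 46 and 43.

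Normalised over all genes, Ins1 came to 476341 and 757607 CPM in the young, 381545 and 355556 in the old, and 143167 in HFHF-old 1. Ins2 came to 353001 and 586325, 317059 and 427537, and 168685, and Iapp to 1478 and 2605, 2551 and 745, and 402. HFHF-old 1 was the lowest of the 5 rats for each of the 3 genes, and young 2 the highest. These normalised values differ from the shares because the scaling factors are set by the bulk of genes and not by insulin. The CPM given below for genes that act with insulin and amylin are normalised in the same way. The order of rats stated for them is on that scale, and was not examined without the scaling factors.

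The edgeR quasi-likelihood test with Benjamini-Hochberg adjustment over 10641 genes called none of the 3 genes in any contrast. It called 21 genes (0.197%) between HFHF-old and old rats (the diet contrast), 16 (0.15%) between old and young rats (the age contrast) and 26 (0.244%) between HFHF-old and young rats (the combined contrast), each difference being the first group minus the second. In the diet contrast, the log2 difference was -1.36 for Ins1 (SE 1.25, adjusted p 0.817), -1.14 for Ins2 (SE 1.23, adjusted p 0.852) and -2.04 for Iapp (SE 0.97, adjusted p 0.760). The Iapp value turned on the old rats, with -0.97 without old 1 and -2.67 without old 2. In the age contrast it was -0.74 (SE 0.96), -0.34 (SE 0.96) and -0.31 (SE 0.71), each with an adjusted p of 1. With 1 rat left out, these ran from -1.03 to -0.36, from -0.65 to 0.083 and from -1.48 to 0.32, so the sign for Ins2 and Iapp turned with single rats. In the combined contrast it was -2.11 for Ins1 (SE 1.31, adjusted p 0.750), -1.48 for Ins2 (SE 1.26, adjusted p 0.802) and -2.35 for Iapp (SE 0.98, adjusted p 0.578). All 9 differences were below 0, and Iapp in the last contrast was the only one with an unadjusted edgeR p under 0.05 (0.0291).

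The call for Ins1 in the combined contrast turned on the method, since DESeq2 gave -2.12 with an adjusted p of 0.00249, and edgeR with the 2 beta-like cells of HFHF-old 2 kept gave -2.16 with an adjusted p of 0.0319, and for Iapp -2.16 with 0.0193. Without scaling factors, the differences in the combined contrast were -0.78, -0.14 and -1.01 for Ins1, Ins2 and Iapp, while the median of all genes moved from 0.01 to 1.27, and in the age contrast Ins2 and Iapp changed sign to 0.083 and 0.18. The differences in the diet contrast then were -0.47, -0.23 and -1.18 for Ins1, Ins2 and Iapp, with a median of all genes of 0.94.

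The genes that act with insulin and amylin were taken from lists of transcription factors, processing enzymes, granule proteins, glucose sensing and hormone receptors. Of 50 listed genes, 44 could be tested in beta-like cells, and edgeR called 0 in each contrast, as did DESeq2 among its 49. At an unadjusted p under 0.05, edgeR had 0 in the diet contrast, 1 in the age contrast and 4 in the combined contrast, that is, of the 44, beside 6.42%, 4.18% and 7.89% of all genes tested. The list medians in the combined contrast were -0.47 for 9 transcription factors, -0.84 for 9 processing genes, -0.40 for 10 granule genes, 0.02 for 9 genes of glucose sensing and 0.69 for 7 of receptors and hormone breakdown, beside 0.01 over all genes tested. In the diet contrast they lay between -0.37 and 0.44, and in the age contrast between -0.27 and 0.23, beside 0.04 and 0.03 over all genes.

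Among transcription factors, Mafa, which activates the insulin gene, had the smallest p in the age contrast. Its level was 8.88 and 9.78 CPM in the young, 6.60 and 1.27 in the old and 6.33 in HFHF-old 1, a log2 difference of -1.45 (SE 0.58, edgeR adjusted p 0.961). Old 2 stood well below the other rats. Without old 1, Mafa was called by edgeR, at -2.87 in the age contrast (adjusted p 0.000744) and at 2.22 in the diet contrast (adjusted p 0.0444).

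Of the processing genes, Scg5, the chaperone of prohormone convertase PC2, had 719 and 1200 CPM in the young, 850 and 1094 in the old and 323 in HFHF-old 1. That was a log2 difference of -1.59 between HFHF-old and old (SE 0.81, edgeR adjusted p 0.760). Pam, the enzyme that amidates amylin, had 349 and 466 normalised CPM in the young, 262 and 198 in the old and 223 in HFHF-old 1. The young rats were above the others for Pam, with -0.83 in the age contrast (SE 0.54, edgeR adjusted p 1).

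Granule genes supplied Chga, the chromogranin of the granule core. Its normalised level was 826 and 837 CPM in the young, 808 and 309 in the old and 209 in HFHF-old 1. HFHF-old 1 was lowest, and the differences were -1.995 against young (SE 0.84, edgeR adjusted p 0.578) and -1.42 against old (SE 0.81, adjusted p 0.761). Ptprn, a granule membrane protein, had 122 and 204 CPM in the young, 124 and 58.7 in the old and 48.8 in HFHF-old 1. Its difference from young was -1.74 in HFHF-old (SE 0.68, edgeR adjusted p 0.513) and -0.85 in old rats (SE 0.51, adjusted p 1). Syt7, a calcium sensor of exocytosis, went the other way, with 20.6 and 14.1, 22.7 and 13.2, and 33.7 CPM, and a difference of 0.93 between HFHF-old and old (SE 0.44, edgeR adjusted p 0.760). Ramp2 modifies receptors of the calcitonin family, to which the amylin receptor belongs. It had 36.2 and 38.7, 21.8 and 29.8, and 15.5 normalised CPM. The young were above the other rats, at -1.27 in the combined contrast (SE 0.47, edgeR adjusted p 0.457).

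The balance between Ins1 and Ins2 was compared in insulin-high cells, since the rule for these cells uses their sum and not their ratio. Reads of this kit come from the 3′ end of the mRNA, so that UMIs of both genes do not scale with length. The ratio of Ins1 to Ins2 UMIs was 1.34 in both young rats, 1.18 and 0.853 in the old rats and 0.843 in HFHF-old 1, and the 4 cells of HFHF-old 2 gave 0.645. Both young rats had more Ins1 than Ins2, old 2 and both HFHF-old rats had less, and old 1 had more Ins1 too, at a ratio below both young rats. In these cells the groups did not overlap, but old 2 and HFHF-old 1 were close, with 95% counting intervals of 0.852 to 0.854 and 0.841 to 0.845. Intervals here and elsewhere cover counting error only.

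As means of log2 ratios, the young had 0.43, the old 0.01 and HFHF-old 1 -0.25. The difference was -0.42 in the age contrast (two-sided exact permutation p 0.333), -0.67 in the combined contrast (exact permutation p 0.333) and -0.25 in the diet contrast (exact permutation p 0.667). The smallest p this number of rats allows is 0.333, so the test could not call any of them. The age difference was -0.65 without old 1 and -0.18 without old 2, and the diet difference -0.018 and -0.49, while the combined difference stayed at -0.67. Beta-like cells had ratios of 1.35 and 1.29, 1.20 and 0.832, and 0.849 and 0.611. There HFHF-old 1 was above old 2, so that the old and HFHF-old rats overlapped, as they did among insulin-high cells of 5000 to 20000 UMIs (0.791 in old 2 and 0.811 in HFHF-old 1). Among insulin-high cells of at least 20000 UMIs the ratios were 1.34 and 1.31, 1.19 and 0.853, and 0.845 in HFHF-old 1. The cells left out for their high gene number had 1.27 and 1.30 in the young, 1.32 and 0.857 in the old and 0.7999 in HFHF-old 1.

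Single cells varied around their rat's ratio more than counting allows. Ins1 as a percent of insulin had an SD over cells of 3.64 and 2.40 in the young, 7.13 and 8.08 in the old, and 8.69 in HFHF-old 1. Counting alone would give 1.57 and 1.19, 1.37 and 1.90, and 1.30. The SD was thus larger in the old and HFHF-old rats than in the young, without a test. The interquartile range over cells was 54.6% to 59.0% Ins1 in young 1, 57.4% to 59.7% in young 2, 52.9% to 56.3% in old 1, 41.7% to 51.4% in old 2, and 40.3% to 48.7% in HFHF-old 1. By that measure old 1 was narrower than young 1.

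**Figure D3:**
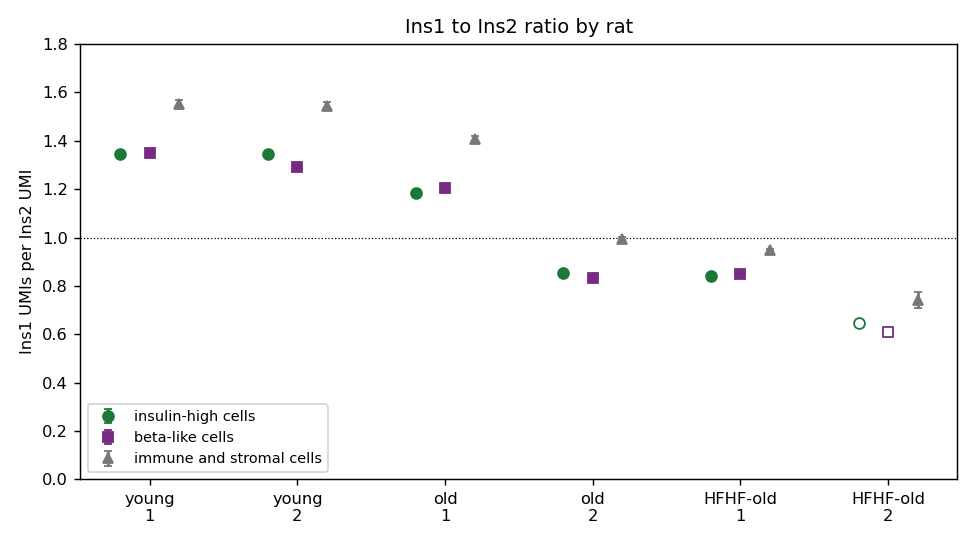
Ins1 UMIs per Ins2 UMI by rat in insulin-high cells, beta-like cells and immune and stromal cells, with 95% counting intervals and open symbols for fewer than 10 cells. Values lie on both sides of 1, with both young rats and old 1 above it in every set, and immune and stromal cells above the insulin-high cells of the same rat.

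In immune and stromal cells with under 1% insulin, the Ins1 to Ins2 ratio was 1.54 and 1.57 in the young, 1.59 and 0.979 in the old, and 0.953 and 0.788 in the HFHF-old rats. The ratio there was above that of the pooled insulin-high cells of the same library in 6 of 6 rats, by 1.15, 1.17, 1.34, 1.15, 1.13 and 1.22 times. In HFHF-old 2 this rested on 1 insulin-high cell of at least 20000 UMIs, with a ratio of 0.580. Its 2 cells of 5000 to 20000 UMIs had 0.843 and its 1 cell under 5000 UMIs had 1.10, both above 0.788. Old 1 differed most, since its free transcripts had the ratio of the young rats while its insulin-high cells did not. This pattern was seen in the data and given no test.

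The question for Iapp was how much amylin transcript accompanied insulin. Insulin-high cells held 1.77 (95% counting interval 1.72 to 1.82) and 1.82 (1.79 to 1.86) Iapp UMIs per 1000 insulin UMIs in the young rats. The old rats had 3.57 (3.51 to 3.63) and 0.989 (0.971 to 1.01), and HFHF-old 1 had 1.30 (1.26 to 1.34). In HFHF-old 2, 92 Iapp UMIs in 4 cells gave 1.70 (1.37 to 2.08). The young rats were close to each other, whereas the old rats were at both ends of the whole range, so neither other group stood apart from them.

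On the log2 scale the difference was 0.07 in the age contrast (exact permutation p 1), -0.53 in the diet contrast (exact permutation p 1) and -0.47 in the combined contrast (exact permutation p 0.333, the smallest possible). Old 1 decided the direction of the first and the second, which were -0.86 and 0.39 without it. In edgeR on the same cells, which called 0 of 12421 genes (0%) in each contrast, Iapp differed by -1.88 between HFHF-old and old (SE 1.31, adjusted p 0.961), by 0.57 between old and young (SE 0.98, adjusted p 1.00) and by -1.31 between HFHF-old and young (SE 1.27, adjusted p 0.752). At an unadjusted p under 0.05 that fit had 166, 382 and 630 genes in the diet, age and combined contrasts, and DESeq2 called 4, 11 and 26. Without young 1, edgeR called 2, 570 and 2261.

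Single insulin-high cells spanned a wide range of Iapp. The median cell had 1.48 and 1.54 Iapp UMIs per 1000 insulin UMIs in the young, 3.15 and 0.754 in the old, and 1.21 in HFHF-old 1. Insulin-high cells without any Iapp UMI made up 19.2% and 8.09% in the young, 3.43% and 33.0% in the old, and 12.6% in HFHF-old 1. Old 2, with the most such cells, also had the lowest median depth, 2286 UMIs. At 20000 UMIs or more the ratio was 1.77 and 1.88, 3.62 and 0.983, and 1.28, in the same order of rats as over all depths.

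**Figure D4:**
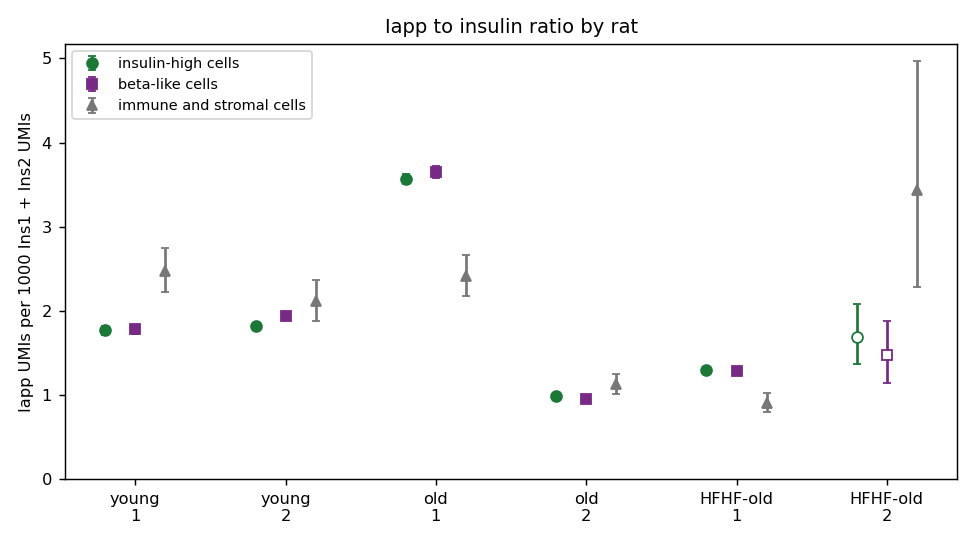
Iapp UMIs per 1000 UMIs of Ins1 and Ins2 by rat in insulin-high cells, beta-like cells and immune and stromal cells, with exact 95% Poisson intervals and open symbols for fewer than 10 cells. In insulin-high and beta-like cells the old rats lie at both ends, 3.57 and 0.989 in the first, with the young rats together between them, which does not hold in immune and stromal cells.

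Delta-like cells, the somatostatin cells of the islet, carried Iapp also where their insulin was low. They numbered 30 and 16 in the young, 10 and 40 in the old, and 7 and 0 in the HFHF-old rats. Iapp made up 0.301% and 0.270% of their UMIs in the young, 0.301% and 0.102% in the old, and 0.181% in HFHF-old 1. That was above the beta-like share of the same library in 5 of 5 rats. Insulin in these cells varied from 0.405% in young 1 to 51.3% in old 2, where 52.5% of the barcodes were most like doublets.

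Taking the delta-like cells with under 1% insulin left 27 and 12 cells in the young, 8 and 16 in the old, and 5 in HFHF-old 1. Of these, 68.75% in old 2, 25% in old 1 and up to 8.33% in the other rats were most like doublets. Their Iapp share was 0.304% and 0.313%, 0.281% and 0.112%, and 0.200%, much as before. Insulin in them was 0.0931% to 0.199%, and they held 1006 to 3269 Iapp UMIs per 1000 insulin UMIs, against 0.951 to 3.65 in beta-like cells. The 1% limit acts on the denominator of this ratio, so its height was set by the choice of cells. Their median insulin was 7 to 29 UMIs a cell, against 6 to 30 in immune and stromal cells under the same limit. Without the limit, delta-like cells held 742 and 19.9 in the young, 9.58 and 1.99 in the old, and 9.57 in HFHF-old 1. Insulin occupies most of a beta-like cell's UMIs, which lowers the share of every other gene. As a share of UMIs other than insulin, Iapp came to 0.561% and 0.929% in beta-like cells of the young, 0.971% and 0.248% in the old, and 0.171% in HFHF-old 1. The delta-like cells with under 1% insulin had 0.305% and 0.313%, 0.281% and 0.113%, and 0.200%. On that scale beta-like cells were higher in 4 of 5 rats, all but HFHF-old 1, so the order of these classes depends on the denominator.

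Mean Iapp per delta-like cell was 36.3 and 56.6 UMIs in the young and 72.7 and 40.3 in the old, against 0.0229 and 0.0717, and 0.0719 and 0.0328, in immune and stromal cells of the same libraries. The exact sign-flip permutation test over the 4 rats gave p 0.125, the smallest it can give. Cells with an Iapp UMI made up 86.7% and 100% of delta-like cells in the young and 100% and 92.5% in the old. In immune and stromal cells, which should lack Iapp, they made up 1.62% and 5.27%, and 4.33% and 1.39%, with median depths of 2924 to 8457.5 UMIs a cell against 11240.5 to 29538.5. Thinned to 1000 UMIs a cell, which left out shallower cells and kept 27, 16, 10 and 38 delta-like cells, the shares were 88.9%, 100%, 100% and 57.9% against 0.392% to 1.18%. The shallower cells left out of the immune and stromal set numbered 865, 135, 220 and 1518.

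Alpha-like and PP-like cells had less Iapp, with means still above those of immune and stromal cells in every rat compared. By median this did not hold for PP-like cells of old 2, which had 0 Iapp UMIs, as immune and stromal cells did. Alpha-like cells, the glucagon cells, numbered 383 and 220 in the young, 101 and 369 in the old, and 9 and 1 in the HFHF-old rats. They had a mean of 3.71 and 4.25 Iapp UMIs a cell in the young and 5.78 and 1.56 in the old (exact sign-flip permutation p 0.125 against immune and stromal cells, the smallest possible with 4 rats). PP-like cells had 2.21 and 6.56, 8.97 and 1.496, and 2.28 in HFHF-old 1 (exact sign-flip permutation p 0.0625, the smallest possible with 5 rats). Among alpha-like cells with under 1% insulin the Iapp share was 0.0281% and 0.0188% in the young, 0.0204% and 0.0108% in the old, and 0.00998% in the 9 cells of HFHF-old 1. Old 2 was below old 1 and both young rats in alpha-like, delta-like, PP-like and beta-like cells alike.

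**Figure D5:**
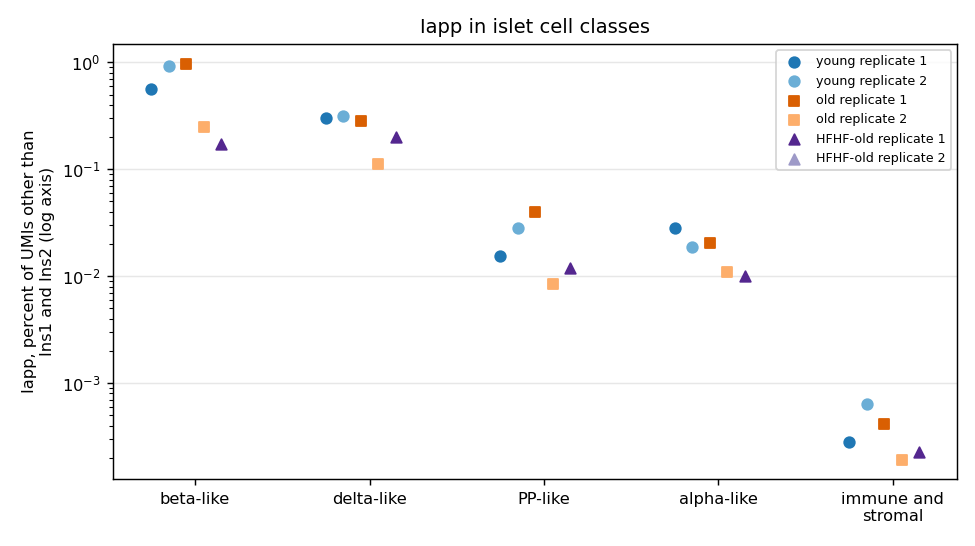
Iapp as a percent of UMIs other than Ins1 and Ins2, by rat, in beta-like cells and in delta-like, PP-like, alpha-like and immune and stromal cells with under 1% insulin, for sets of at least 5 cells. Beta-like and delta-like cells lie well above alpha-like and PP-like cells, and immune and stromal cells lowest.

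Insulin itself in alpha-like cells was not clearly above its level as free RNA, that is, transcripts from broken cells that enter every droplet. Ins1 made up 0.0829% and 0.377% of alpha-like UMIs in the young, 0.787% and 0.648% in the old, and 0.104% and 0% in the HFHF-old rats. Ins2 made up 0.0596% and 0.248%, 0.585% and 0.672%, and 0.0886% and 0%. Both old rats were above both young rats for each gene, and the HFHF-old rats had fewer than 10 cells each. With these rats kept, the edgeR log2 difference in the diet contrast was -4.52 for Ins1 (adjusted p 0.509) and -4.55 for Ins2 (adjusted p 0.483). At clustering resolution 2, where HFHF-old 1 had 16 alpha-like cells, it was 1.32 and 1.51 (edgeR adjusted p 0.639 and 0.610), so its sign turned with the cells chosen. The combined contrast gave -2.60 and -2.23 (edgeR adjusted p 0.734 and 0.766) and, at resolution 2, 2.77 and 3.64 (edgeR adjusted p 0.415 and 0.334). The median alpha-like cell held 7, 21, 21 and 9 insulin UMIs in young 1, young 2, old 1 and old 2, against 6, 19, 17 and 7 in immune and stromal cells (exact sign-flip permutation p 0.125, the smallest possible). The means differed far more, 18.9, 128, 347 and 179 against 9.26, 33.9, 29.8 and 29.1.

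Insulin-high cells were 0, 1, 1 and 13 of the alpha-like cells in these 4 rats. Among alpha-like cells with under 1% insulin, insulin made up 0.0785% and 0.140% of UMIs in the young and 0.0921% and 0.0858% in the old, and the groups overlapped. The limit acts on insulin itself and so caps these shares. Immune and stromal cells under the same limit had higher shares, 0.119%, 0.283%, 0.196% and 0.208%. Their means were lower, 6.94, 19.8, 19 and 7.81 insulin UMIs a cell against 10.5, 28.75, 23.7 and 11.97 in alpha-like cells. Which cells made up the gap in means was not tested. As a percent of all UMIs, alpha-like cells had 0.142%, 0.625%, 1.37% and 1.32% against 0.164%, 0.533%, 0.324% and 0.828% in immune and stromal cells (exact sign-flip permutation p 0.25).

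In the age contrast in alpha-like cells, edgeR gave a log2 difference of 1.91 for Ins1 (SE 0.75, adjusted p 0.859), 2.32 for Ins2 (SE 0.74, adjusted p 0.622) and -0.08 for Iapp (SE 0.39, adjusted p 0.998). None of the 3 was called, and 23 of 10821 genes (0.213%) were. Ins1 and Ins2 had unadjusted p of 0.0239 and 0.00762. Without young 2 both were called, at 3.79 (edgeR adjusted p 0.0268) and 4.09 (edgeR adjusted p 0.0144), with the replicate number as a block both were called, at 2.44 (edgeR adjusted p 0.00143) and 2.80 (edgeR adjusted p 3.78e-05), and without the low-count filter Ins2 was called (edgeR adjusted p 0.0168). The alpha-like cells came from 2 clusters of unequal make-up. Young 1 had 330 of its 383 cells in the first, and old 2 had 125 of 369. Their insulin shares differed without a common direction, with 0.142%, 1.27%, 0.210% and 2.35% in the first and 0.150%, 0.315%, 2.74% and 0.725% in the other.

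Free RNA was read from the 55767 immune and stromal cells, which do not make insulin. The set kept barcodes with 1% insulin or more, insulin-high ones among them, so its pooled share is not free RNA alone. Insulin was 0.533% of UMIs in the whole set of young 2 and 0.828% in that of old 2. In their cells with under 1% insulin it was 0.283% and 0.208%. Ins1 made up 0.0995% and 0.324% of their UMIs in the young, 0.189% and 0.413% in the old, and 0.136% and 0.00331% in the HFHF-old rats. Ins2 made up 0.0642% and 0.209%, 0.135% and 0.415%, and 0.144% and 0.00447%. Iapp made up 0.000405% and 0.00113%, 0.000781% and 0.000933%, and 0.000254% and 2.67e-05%. For Ins1 both HFHF-old rats were below both old rats and the young overlapped both groups, for Ins2 all groups overlapped, and for Iapp both HFHF-old rats were under the other 4. These orders held for the pooled share and turned with other measures. In cells with under 1% insulin, Ins1 was 0.126% in HFHF-old 1 against 0.12% and 0.103% in the old rats, and as a median over cells 0.13% against 0.12% and 0.119%. Iapp in cells with under 1% insulin was 0.000226% in HFHF-old 1, above 0.000192% in old 2, and in T-like and NK-like cells alone it was 0.000336%, above 0.000231% in young 1 and 0.000325% in old 2.

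At least 1 insulin UMI was found in 98.6% and 100% of immune and stromal cells of the young, in 99.6% and 99.4% of the old, in 99.96% of HFHF-old 1 and in 4.77% of HFHF-old 2. The median cell held 6 and 19, 17 and 7, and 30 and 0 insulin UMIs. In the shallowest and the deepest depth quartile of a library the median was 5 and 7 in young 1, 19 and 20 in young 2, 12 and 22 in old 1, 6 and 8 in old 2, and 22 and 42 in HFHF-old 1. The number of free insulin UMIs thus varied less than depth, whose medians in those quartiles were 1578 and 10944 UMIs in young 1 and 4658 and 20598 in HFHF-old 1. Insulin-high barcodes named immune or stromal numbered 10 and 5, 7 and 86, and 3 and 1. Old 2, with 86, had the largest share of insulin in this set.

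Between groups, the difference in Ins1 share was -0.231 percentage points in the diet contrast (exact permutation p 0.333, the smallest possible), 0.0895 in the age contrast (exact permutation p 0.667) and -0.142 in the combined contrast (exact permutation p 0.667). For Ins2 it was -0.201, 0.138 and -0.0628, each with an exact permutation p of 0.667. For Iapp it was -0.000717 (exact permutation p 0.333), 9.13e-05 (exact permutation p 1) and -0.000626 (exact permutation p 0.333). With 1 rat left out, the combined difference for Iapp ran from -0.000987 to -0.000265. With 2 rats a group the test could call none of these. Leaving out 1 rat, the diet difference ran from -0.343 (without old 1) to -0.12 (without old 2) for Ins1 and from -0.341 to -0.0605 for Ins2 with the same rats left out, and the combined difference for Ins1 from -0.254 without young 1 to -0.0299 without young 2. Restricted to cells with under 1% insulin, the Ins1 difference in the age contrast was -0.011 percentage points, so its direction turned with this limit. The diet difference shrank there to -0.0485 for Ins1, -0.0241 for Ins2 and -0.000191 for Iapp.

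Acinar-like cells, the enzyme-producing cells that surround islets, also held insulin and Iapp UMIs. Insulin made up 0.159% and 0.380% of their UMIs in the young, 0.674% and 0.624% in the old, and 0.563% and 0.000735% in the HFHF-old rats. Iapp made up 0.000362% and 0.000732%, 0.00197% and 0.000426%, and 0.000484% and 0%. The value at 0 rests on 56 cells of HFHF-old 2. For insulin, immune and stromal cells had 0.164% and 0.533% in the young, 0.324% and 0.828% in the old, and 0.280% in HFHF-old 1. Acinar-like cells were above them in old 1 and HFHF-old 1 and below them in the young and old 2, for insulin and for Iapp. Insulin-high acinar-like barcodes numbered 0 and 1, 3 and 2, and 11 and 0. Their part in these shares was not tested.

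With Ins1, Ins2 and Iapp left out of the ranking, the genes whose level over 85 sums of a class and a rat was most like that of insulin were Ppp1r1a (r 0.753), which encodes an inhibitor of protein phosphatase 1, Tmem215 (r 0.738), the glucose transporter gene Slc2a2 (r 0.716), the GABA-synthesising Gad2 (r 0.700) and the prohormone convertase gene Pcsk2 (r 0.693). The sums shared libraries and free RNA, and the correlations on log2(CPM + 1) are a description. Iapp was most like the granule genes Scg2 (r 0.930), Scg3 (r 0.922) and Chga (r 0.919), Pcsk2 (r 0.918) and LOC102553190 (r 0.917). With insulin itself Iapp had an r of 0.737, below its r with each of those genes.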

How the data were processed

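Islets were freed by the authors with collagenase P and enriched on a gradient. They prepared 10x Genomics 3′ v3.1 libraries, and the authors deposited filtered Cell Ranger matrices of UMI counts per gene and barcode. The paper and the file headers (5.0.0) name different versions of Cell Ranger, and the labels give build Rnor_6.0. Strand settings and the handling of reads shared by Ins1 and Ins2 are not given in the sources used here.

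Cells with at least 200 genes, at most 25% mitochondrial UMIs and a gene number outside the top 1% over all barcodes (a limit of 6332 genes) were kept, after the study's methods. This left 75201 of 78024 barcodes, fewer than the study states, and how it set the top 1% is not given in the sources used here. Counts were scaled to 10000 per cell, 2000 variable genes without Ins1, Ins2 and Iapp were chosen, and 10 principal components (20 for secretory cells) with 15 neighbours were clustered with leiden at resolution 1 in scanpy 1.11.5. This gave 26 clusters, and 22 among secretory cells. A cluster was named from fixed marker lists and stayed unnamed where too few markers, markers of another class or 1 library led it. Free RNA was read in 9 immune and stromal classes. Barcodes most like simulated doublets, 0.8% per 1000 barcodes and 8113 in all, were kept and left out as an alternative.

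For each rat, the UMIs of a class were added up, and rats with at least 10 cells were tested in 1 fit with edgeR 4.0.16 (quasi-likelihood, TMM, filterByExpr) in R 4.3.3. A gene was called at an adjusted p under 0.05 and a fold over 1.5. DESeq2 1.42.0 was an alternative. Single values were compared with two-sided exact permutation tests in scipy 1.17.1, and ratio intervals are at 95%. The code was tested on simulated counts. Promoters are RefSeq sequences of build GRCr8, all 3 matched by symbol and aligned with biopython 1.88. The genes, lists and tests were chosen with earlier results of these data known. Named were the 3 genes, the 3 pathway genes with the smallest p in each contrast, as none was called, and the 5 genes most correlated with insulin and with Iapp.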

Additional observations from a re-analysis of the deposited data

How the results depend on the processing

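Of the values recomputed under alternatives, 353 kept their direction and side of the threshold, 20 changed sign, 8 gained a call and 2 counts moved. The 353 include exact permutation tests of both ratios and of free RNA, and the sign-flip test of insulin in alpha-like cells. With so few rats the smallest p of these tests lies above the threshold, so they could not gain a call. For them, only a kept direction is informative. Leaving out 1 rat at a time, Iapp per insulin ranged from -1.46 to 0.39 (log2, HFHF-old against old) and from -0.86 to 0.99 (old against young), Ins2 and Iapp in beta-like cells (old against young) from -0.65 to 0.083 and from -1.48 to 0.32, Iapp in alpha-like cells from -0.55 to 0.30, and Iapp by edgeR in insulin-high cells (old against young) from -0.68 to 1.23. As free RNA in percentage points, the same gave for old against young -0.0225 to 0.202 (Ins1), -0.00231 to 0.278 (Ins2) and -0.00027 to 0.000452 (Iapp), and for HFHF-old against young -0.135 to 0.00989 (Ins2). Free Ins1 for old against young was -0.0244 as a median over cells and -0.011 in cells with under 1% insulin, free Iapp was -3.43e-05 in T-like and NK-like cells alone and -0.000151 in cells with under 1% insulin, and free Ins2 for HFHF-old against young was 0.322 as UMIs per cell. The median Iapp over cells was 0 in every rat and gave no difference. Without scaling factors Ins2 and Iapp in beta-like cells for old against young were 0.083 and 0.18. The cause of these changes was not tested.

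Calls were gained for HFHF-old against young in beta-like cells, where Ins1 was -2.12 with DESeq2 and -2.16, and Iapp -2.16, with rats under 10 cells kept. In alpha-like cells the difference of Ins1 ranged from 1.13 to 3.79 and of Ins2 from 1.56 to 4.09 with 1 rat left out, and without the low-count filter Ins2 was 2.31 (adjusted p 0.0168). The pathway count ranged from 0 to 1 with 1 rat left out for HFHF-old against old and for old against young, the 1 being Mafa without old 1. The lone HFHF-old rat is assumed to vary like the other groups in the fits of islet classes that left out rats under 10 cells.

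Rats with the same replicate number share no animal, and their deviations correlated by 0.065 in beta-like, 0.106 in alpha-like and -0.191 in insulin-high cells, where both pairs give the same value. With the replicate number as a block, Ins1 and Ins2 in alpha-like cells became 2.44 and 2.80 (edgeR adjusted p 0.00143 and 3.78e-05), with no other change of call among the 3 genes, and calls went from 21, 16 and 26 to 11, 27 and 26 in beta-like cells, from 23 to 67 in alpha-like cells and stayed at 0 in insulin-high cells. Crossing the numbers there gave 16, 42 and 48 calls.

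Calls in beta-like cells in the diet, age and combined contrasts were 12, 14 and 27 with DESeq2, 125, 94 and 170 without the low-count filter, 99, 59 and 160 with rats under 10 cells kept, 43, 29 and 90 at resolution 2, and 69, 20 and 1499 without scaling factors, of which 67, 17 and 1492 were higher, against 17, 12 and 22 in the fit reported. They were 109, 117 and 138 without old 1, 77, 40 and 143 without old 2, 23, 8 and 22 without young 1, and 22, 6 and 6 without young 2. In alpha-like cells they were 99 without the filter, 66 with rats under 10 cells kept, 12 at resolution 2 and 1 without scaling factors, and 35, 64, 121 and 51 without young 1, young 2, old 1 and old 2. In insulin-high cells they were 60, 172 and 390 without the filter, 9, 21 and 73 without old 1, 7, 3 and 57 without old 2, and 2, 0 and 0 without young 2. Alternatives without scaling factors, with crossed numbers, by depth, in beta-like cells, in cells with under 1% insulin and with rats under 10 cells kept in the ratios were chosen after seeing the data.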
